A study of Chrysanthemum x morifolium with 40 samples.

Results

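The genes of iron uptake and storage were examined in waterlogged roots of chrysanthemum (Chrysanthemum x morifolium). They were taken by the protein name from Swiss-Prot that the deposited table gives a gene, a rule that reads no expression value but was set with earlier results of these data known. Members were the genes whose name contained ferritin, Fe(2+) transport, ferric reduction oxidase, vacuolar iron transporter, metal transporter Nramp or nicotianamine synthase. Of the 178540 genes of the table, 106614 carried a Swiss-Prot name and 191 were members: 49 vacuolar iron transporters, 48 nicotianamine synthases, 37 ferric reduction oxidases (FRO), 28 Nramp transporters, 15 ferritins and 14 Fe(2+) transport proteins. Fragments were found for 167 members in at least 1 library, and 24 were listed at 0 in all 40 libraries. FPKM, the unit of the table, is a fragment count scaled to gene length and library size. Tested were the 96 members that reached an FPKM of 1 in 4 or more libraries. The names are matches to proteins of other species, so a role given below is that of the matched protein and was not shown for the chrysanthemum gene.

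RNA came from roots of seedlings aged 8 weeks. EWT, short for Enhanced Waterlogging Tolerance, was compared with CK, the common 'Hangju' cultivar 'zaoxiaoyangju', which is sensitive to waterlogging. Both were propagated from cuttings. Each cultivar was sampled at 0 h (not flooded) and after 3 h, 12 h and 24 h under water that stood 2 cm above the uppermost leaves, and again 3 h after the end of a flooding of 24 h (24_3 h, reoxygenation). Each of the 10 groups had 4 libraries. The libraries held between 3517588 and 9929777 fragments on genes, with a median of 6292021. No unflooded seedlings were sampled after 0 h, so waterlogging and time of day cannot be told apart. In these bulk roots, fewer cells of a type and less RNA per cell cannot be told apart either.

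Plants outside the grasses take up iron mainly by reduction. A ferric reduction oxidase at the root surface turns ferric into ferrous iron, which a Fe(2+) transport protein such as IRT1, helped by Nramp transporters, carries into the cell, and in Arabidopsis the transcription factor FIT drives the genes of both steps. Inside the plant, nicotianamine binds iron for transport between tissues, vacuolar iron transporters move iron into the vacuole and Nramp3 moves it out, and ferritin stores it in plastids. In soil without oxygen, ferric iron is reduced to the soluble ferrous form.

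The summed level of whole families gave the main outline, since it needs no filter on low values. Nramp transporters and nicotianamine synthases lost most of their summed FPKM within 3 h of flooding in both cultivars, whereas summed ferritin was higher in CK at 12 h and 24 h than at 0 h. Summed Nramp FPKM in EWT averaged 721 ± 121, 83.1 ± 8.95, 39.8 ± 3.51, 49.6 ± 3.97 and 167 ± 32.7 in the order 0 h to 24_3 h (SD, n = 4 here and below). In CK it averaged 190.4 ± 17.1, 85.2 ± 3.92, 64.1 ± 6.08, 70.1 ± 8.83 and 156 ± 7.09 at the same times. EWT thus stood well above CK before flooding, and at 24_3 h EWT stood at 23.2% and CK at 81.9% of its own level at 0 h. The Nramp5 gene evm_TU_scaffold_4047_22, whose values are given below, was the largest part of the Nramp sum at 0 h in both cultivars. It was far lower at all later times. Neither the fall of the sum nor the percentages at 24_3 h therefore speak for every Nramp gene.

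Summed nicotianamine synthase FPKM in EWT averaged 236 ± 86.2, 16.7 ± 7.34, 3.58 ± 1.66, 3.83 ± 0.892 and 26.2 ± 15.6 from 0 h to 24_3 h. In CK it averaged 118 ± 37.8, 16.3 ± 2.06, 2.59 ± 1.82, 2.01 ± 1.298 and 11.1 ± 5.89. At 24 h this was 1.63% of the 0 h level in EWT and 1.71% in CK. Summed ferritin FPKM in EWT was 112 ± 4.99, 115 ± 14.8, 181 ± 6.11, 95.6 ± 14.3 and 58.7 ± 0.894, and in CK 225 ± 37.6, 223 ± 36.04, 505 ± 76.6, 495 ± 79.1 and 122 ± 22.3. The 4 EWT libraries lay below the 4 CK libraries at every time. These sums are descriptions and were not tested. They also depend on the library size behind FPKM, which in CK was 1.14 to 1.23 times the fragments on genes at 0 h. It was 0.780 to 0.991 times at 12 h and 0.835 to 0.911 times at 24 h. With all counted fragments as library size the rise of summed ferritin would be smaller.

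**Figure D1:**
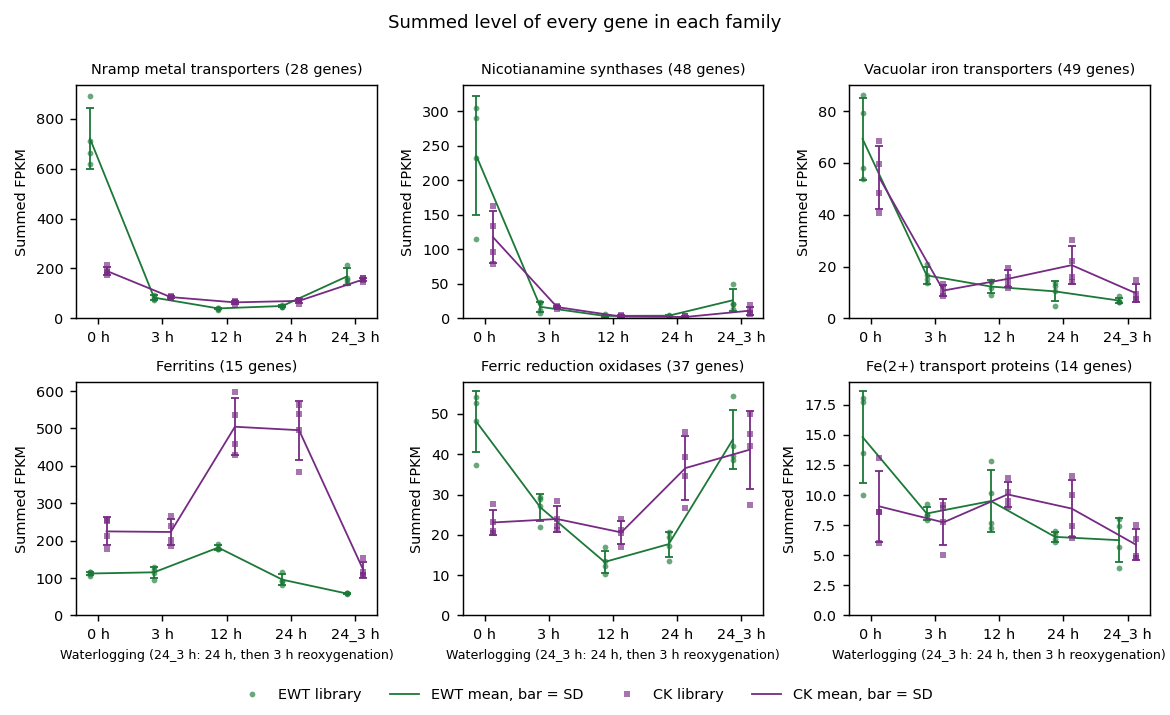
Summed FPKM of all genes of each family (vertical axis) at each time of waterlogging (horizontal axis), with points for single libraries, lines through the means and bars for the SD, n = 4, EWT in green and CK in purple. Summed Nramp FPKM was 721 ± 121 in EWT and 190.4 ± 17.1 in CK at 0 h, and summed ferritin FPKM was 95.6 ± 14.3 in EWT and 495 ± 79.1 in CK at 24 h.

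The same outline was seen in the tests of single genes. A gene was called where limma gave an adjusted p of at most 0.05, over all 89517 genes tested, and a fold change of at least 2 on the log2(FPKM + 0.1) scale, which understates changes of low genes. At 12 h against 0 h, 2 members were higher and 64 lower in EWT. This was 68.8% of the members, where 46.8% of all tested genes were called (20.2% higher, 26.5% lower), and the median log2 difference was -2.77 for members and -0.12 for all tested genes. At 24 h in EWT 1 was higher and 65 were lower, beside 46.0% of all tested genes (19.3% higher, 26.7% lower). In CK the 12 h libraries gave 9 higher and 58 lower members, beside 45.6% of all tested genes (18.4% higher, 27.1% lower). The 24 h libraries of CK gave 14 higher and 54 lower, beside 49.0% of all tested genes (20.4% higher, 28.6% lower). With all counted fragments as library size they gave 9 higher and 62 lower of 99 members. The medians in CK were -2.05 at 12 h and -2.20 at 24 h.

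The falls began early. At 3 h against 0 h no member was higher and 53 were lower in EWT, beside 21.6% of all tested genes (8.96% higher, 12.7% lower). In CK 4 members gained and 45 lost, beside 25.5% of all tested genes (11.3% higher, 14.2% lower). With reoxygenation, at 24_3 h, the comparison with 0 h still gave 1 higher and 51 lower members in EWT, beside 21.3% of all tested genes (9.13% higher, 12.1% lower). For CK it gave 12 higher and 50 lower, beside 26.1% (10.2% higher, 15.9% lower). In EWT 42 members were lower at all 4 later times and in CK 41, of which 24 and 25 were nicotianamine synthases and 10 and 10 vacuolar iron transporters. At 24 h, 50 members were lower in both cultivars, and 3 were lower in EWT and higher in CK (a FRO6, an Nramp6 and a vacuolar iron transporter homolog gene, the homolog with no fragment in EWT at 24 h and 12 at 0 h). The FRO6 rise in CK (log2 difference of 1.35, adjusted p = 0.00857) was not called with all counted fragments as library size (0.91, adjusted p = 0.0574) or with a pseudocount of 0.01 (1.39, adjusted p = 0.148).

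These counts, at 3 h and 24_3 h as at 12 h and 24 h, lean on the filter, because 37 of the 96 tested members (38.5%) passed it through the 0 h libraries alone, against 8.73% of all tested genes. Such genes were bound to be highest at 0 h. They were 24 of 29 tested nicotianamine synthases, 9 of 17 vacuolar iron transporters, 2 of 17 Nramp transporters and 2 of 20 FRO genes. With a filter that left out the 0 h libraries 59 members remained. For EWT this left no higher and 19 lower members at 3 h, 2 higher and 29 lower at 12 h, 1 higher and 30 lower at 24 h, and 1 higher and 18 lower at 24_3 h. The shares lower were 32.2%, 49.2%, 50.8% and 30.5%, beside 9.56%, 22.8%, 23.0% and 9.04% of all genes tested under that filter. For CK it left 4 higher and 11 lower members at 3 h, 9 higher and 22 lower at 12 h, 14 higher and 19 lower at 24 h, and 12 higher and 15 lower at 24_3 h. The shares lower in CK were 18.6%, 37.3%, 32.2% and 25.4%, beside 11.3%, 23.5%, 25.0% and 12.6% of all genes, and at 24 h the share higher was 23.7%, beside 22.3%. In CK at 24 h both shares thus lay near those of all genes.

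**Figure D2:**
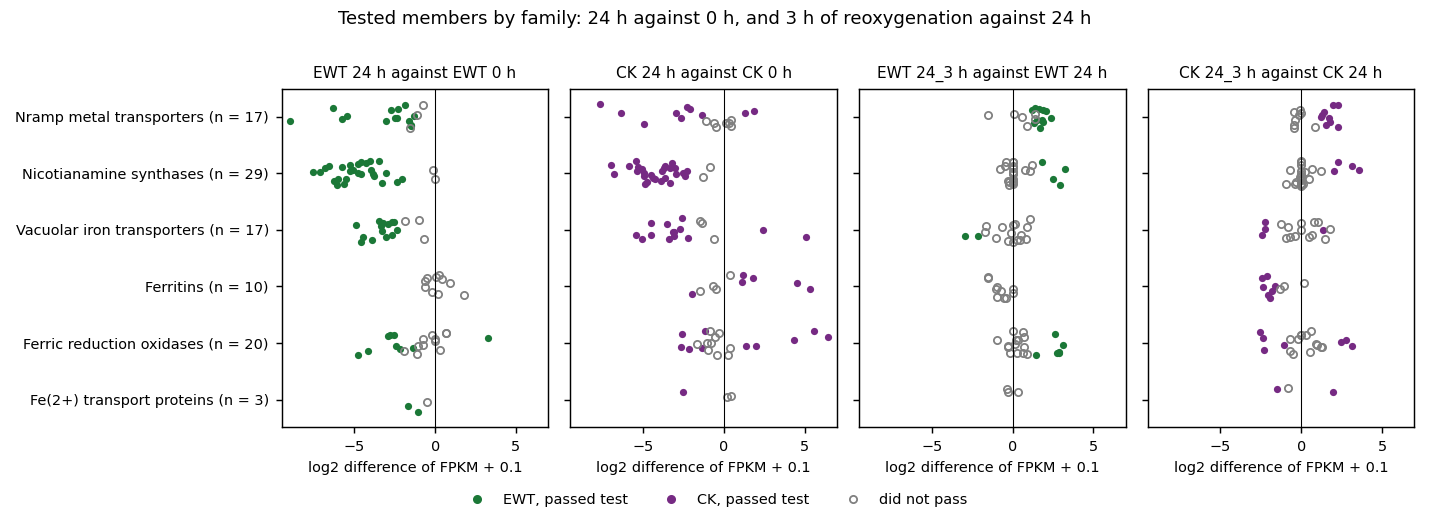
Log2 difference of FPKM + 0.1 (horizontal axis) of every tested member, by family (rows), for 24 h against 0 h and for 24_3 h against 24 h in EWT (green) and CK (purple). Filled points passed the test and open points did not. At 24 h the nicotianamine synthases lie to the left in both cultivars (27 of 29 lower in each, 24 of the 29 having passed the filter through the 0 h libraries alone), and 5 of 10 ferritins lie to the right as called in CK and none in EWT. Among the 5 are both ferritin-2 genes, which met the filter through the CK libraries at 24 h.

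Surface reduction of iron was represented by FRO genes named after Arabidopsis FRO2, the reductase of root iron uptake, and FRO4, a root reductase with a role in copper uptake. The 5 tested FRO2 genes had called changes in both directions, and the filter had a part in these, as given below. evm_TU_scaffold_4753_131 (chromosome 17, 39174356 to 39177755, minus strand) had an FPKM of 0, 0.108, 0 and 0.0728 in EWT at 24 h, against 0, 0.176, 0.0480 and 0.0460 at 0 h. In CK its FPKM was 10.3, 10.7, 4.75 and 10.03 at 24 h, against 0 in all 4 libraries at 0 h. At 24 h every EWT library lay below every CK library. The rise in CK was at least 185-fold, taking 3 fragments over the 4 libraries at 0 h as the limit of detection (counting error only). The interaction is the EWT response less the CK response, each relative to 0 h. It was -6.61 ± 0.67 at 24 h (SE, limma adjusted p = 6.2e-09) and -4.89 ± 0.67 at 12 h (adjusted p = 2.4e-06).

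evm_TU_scaffold_692_345 (chromosome 5, 63341433 to 63345310, minus strand), also named FRO2, was the only member to be higher in EWT at 24 h. Its FPKM was 1.72, 1.29, 0.974 and 2.25 in EWT at 24 h, against 0.0833, 0.0876, 0.0478 and 0.0458 at 0 h, a log2 difference of 3.27 ± 0.48 (adjusted p = 6e-07). In CK it was 7.76, 12.3, 4.51 and 3.52 at 24 h, against 0.0673, 0, 0.0746 and 0 at 0 h (5.60 ± 0.48, adjusted p = 4.7e-12). The rise was in all 4 libraries of each cultivar, and EWT lay below CK at 24 h (-1.999 ± 0.48, adjusted p = 8.7e-04). The interaction at 24 h was -2.33 ± 0.68 (adjusted p = 0.019), a call that was lost without the second CK library at 24 h (-2.01, adjusted p = 0.0541).

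evm_TU_scaffold_1668_112 (chromosome 16, 43972419 to 43975779, minus strand) had no fragment in any EWT library at 24 h or 0 h. CK libraries had an FPKM of 1.43, 3.08, 0.756 and 4.104 at 24 h, against 0 in all 4 libraries at 0 h, at least 48.5-fold higher. evm_TU_scaffold_1495_10 (chromosome 13, 288789998 to 288793244, minus strand) went the other way. It had 2.83, 3.37, 3.68 and 1.37 FPKM in EWT and 1.14, 0.501, 0.149 and 0.769 FPKM in CK at 0 h, and no fragment in any library of either cultivar at 12 h, 24 h or 24_3 h. The fall by 24 h was at least 41.97-fold in EWT and at least 6.84-fold in CK. Of the 5 tested FRO2 genes, EWT had 1 higher and 2 lower at 24 h, and CK had 3 higher and 2 lower. evm_TU_scaffold_1495_10 passed the filter through the 0 h libraries alone. evm_TU_scaffold_4753_131, evm_TU_scaffold_692_345 and evm_TU_scaffold_1668_112 passed it through libraries after 0 h alone. The directions of their called changes from 0 h were thus largely set by the filter. evm_TU_scaffold_4753_131 and evm_TU_scaffold_1668_112 met it through CK libraries alone. Their differences between cultivars and their interactions were therefore in part set by it too.

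The FRO4 genes were 8 of 8 tested. The most abundant, evm_TU_scaffold_6158_8 (chromosome 8, 260456001 to 260465180, minus strand), fell to an FPKM of 1.73, 1.66, 1.46 and 3.03 in EWT at 24 h, against 6.13, 4.17, 4.91 and 4.77 at 0 h (-1.34 ± 0.37, adjusted p = 0.0026). The groups did not overlap. In CK it averaged 0.989 ± 0.568 at 24 h and 2.21 ± 0.534 at 0 h, a call (-1.36 ± 0.37, adjusted p = 0.0022) that was lost without the third CK library at 24 h, which had 0.138 FPKM (-0.73 without it, adjusted p = 0.0335, under the fold threshold). evm_TU_scaffold_6158_34 (chromosome 8, 260250075 to 260257553, minus strand), a FRO4 gene of the same stretch of chromosome, had 2.97, 2.96, 3.23 and 1.72 FPKM in EWT and 0.505, 0, 0 and 0.413 FPKM in CK at 0 h (3.54 ± 0.79, adjusted p = 4.8e-04). In EWT it was at 0, 0, 0.354 and 0 at 12 h (-4.23 ± 0.79, adjusted p = 2.6e-05).

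**Figure D3:**
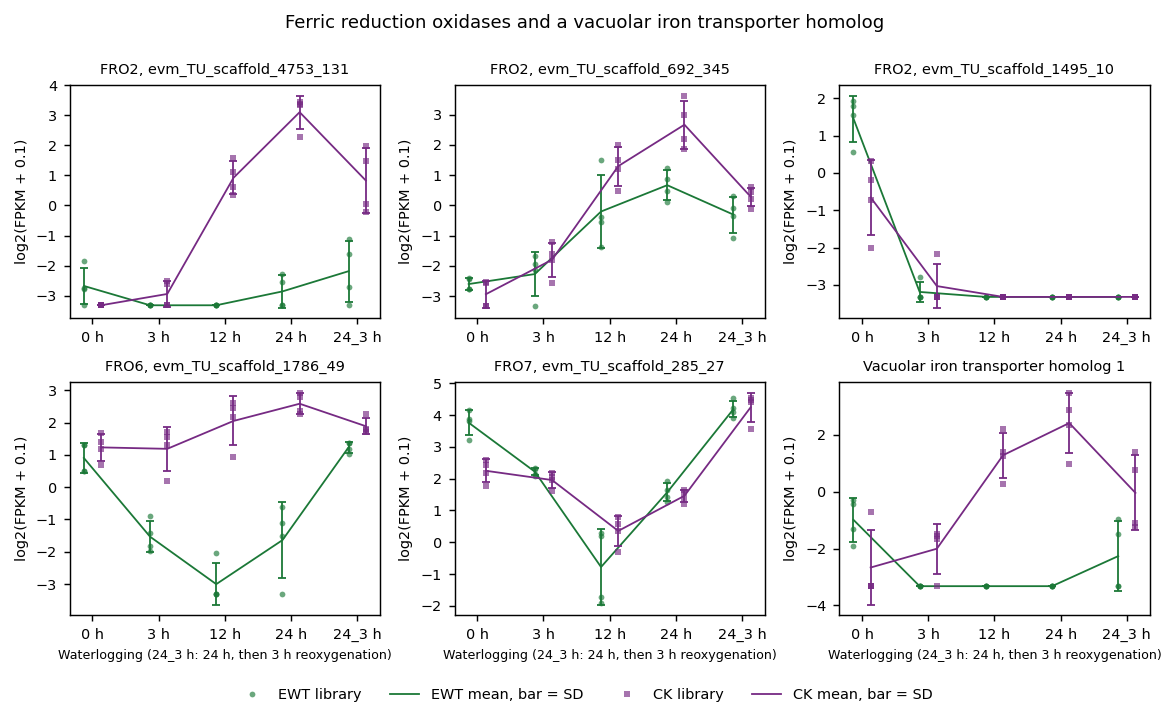
log2(FPKM + 0.1) (vertical axis) at each time (horizontal axis) of 3 FRO2 genes, a FRO6 gene, a FRO7 gene and a vacuolar iron transporter homolog, with points for libraries, lines through means and bars for the SD, n = 4, EWT in green and CK in purple. At 24 h the FRO2 gene evm_TU_scaffold_4753_131 averaged 0.0452 FPKM in EWT and 8.94 in CK, and the homolog evm_TU_scaffold_10398_16 averaged 0 in EWT and 6.26 in CK.

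Of the Fe(2+) transport proteins, the genes named after the Arabidopsis importers IRT1 (2 genes) and IRT2 (7 genes) did not pass the filter, and no untested member of the family exceeded 2.04 FPKM in any library. The 3 tested members were named IRT3, a zinc and iron transporter of Arabidopsis. evm_TU_scaffold_11727_92 (chromosome 26, 192029967 to 192034948, plus strand) averaged 1.72 ± 0.390 FPKM in EWT at 24 h and 3.57 ± 0.310 at 0 h. The difference of -1.04 ± 0.38 (adjusted p = 0.021) lay at the edge of the call, which was lost without the second EWT library at 0 h (-0.995) or at 24 h (-0.89). evm_TU_scaffold_42_9 (chromosome 22, 147841228 to 147844813, plus strand) had 0.364, 0, 0.604 and 0.160 FPKM in CK at 24 h, against 2.74, 0.881, 3.25 and 0.927 at 0 h (-2.54 ± 0.66, adjusted p = 0.0015). evm_TU_scaffold_519_260 (chromosome 27, 184977106 to 184979957, plus strand) did not pass the test against 0 h at any time in either cultivar, with means of 3.23 ± 0.756 FPKM in EWT and 6.96 ± 2.49 FPKM in CK at 24 h.

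Before flooding 1 gene had the highest FPKM of all Nramp genes in every library. evm_TU_scaffold_4047_22 (chromosome 16, 99525067 to 99528543, plus strand) is named Nramp5, in rice a root importer of manganese, iron and cadmium. Its FPKM in EWT was 1.17, 0.587, 1.24 and 0.634 at 24 h, against 384, 619, 488 and 462 at 0 h. In CK it was 1.27, 0.530, 0 and 0.620 at 24 h, against 124, 82.9, 93.9 and 99.9 at 0 h. All libraries at 0 h lay more than an order of magnitude above all later libraries of their cultivar, and the EWT libraries at 0 h lay above the CK libraries.

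The log2 difference of this Nramp5 gene at 24 h was -8.96 ± 0.52 in EWT (adjusted p = 1.6e-16) and -7.63 ± 0.52 in CK (adjusted p = 1.1e-14). Most of the fall was complete at 3 h, with 8.81, 6.17, 5.06 and 6.14 FPKM in EWT and 3.11, 2.91, 4.71 and 4.12 in CK. EWT stood above CK at 0 h by 2.28 ± 0.52 (adjusted p = 6.4e-04). At 24_3 h the level was 1.399, 7.15, 2.49 and 1.43 in EWT and 0.455, 2.27, 2.62 and 2.398 in CK, still far below 0 h. The rise against 24 h (1.41 in EWT, 1.79 in CK) was lost in EWT without any 1 of 4 libraries (the second or the fourth at 24 h, the second or the third at 24_3 h) and in CK without the third library at 24 h. Without these libraries the limma adjusted p was 0.0642 to 0.223 in EWT and 0.0875 in CK.

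A second Nramp5 gene, evm_TU_scaffold_2875_60 (chromosome 17, 110212786 to 110217584, minus strand), separated the cultivars before flooding, with 6.92, 12.8, 6.05 and 7.56 FPKM in EWT and 0.430, 0.561, 0.286 and 0.281 in CK at 0 h (4.08 ± 0.43, adjusted p = 1.1e-09). It was listed at 0 in all libraries of both cultivars at 24 h. This was at least 97.1-fold lower than at 0 h in EWT and at least 3.25-fold lower in CK. The gene reached an FPKM of 1 in the 4 EWT libraries at 0 h alone, which met the filter. Its cultivar difference at 0 h and its later falls were thus largely set by that choice. It was 1 of 2 among the 17 tested Nramp transporters that passed through the 0 h libraries alone. Of 5 tested Nramp5 genes, all 5 were lower at 24_3 h than at 0 h in each cultivar. Over all 12 Nramp5 genes, summed FPKM at 24_3 h was 1.09% of that at 0 h in EWT and 2.44% in CK.

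Nicotianamine synthases, which make the iron chelator nicotianamine, were mostly detected at 0 h. Of the 29 tested members 24 passed the filter through the 0 h libraries alone, so that their lower levels later were fixed by that choice. Of the 5 that passed without those libraries, 5 were lower in EWT and 4 in CK at 3 h, 4 in EWT and 5 in CK at 12 h, and 5 in EWT and 4 in CK at 24 h. Of all 29, 27 were lower in EWT and 26 in CK at 3 h, 26 and 28 at 12 h, and 27 and 27 at 24 h, and none was higher in either cultivar at these times. The most abundant, at chromosome 22, 256691743 to 256693067, minus strand, lies outside the genome's own gene models. It had 2.56, 0.342, 0.903 and 2.19 FPKM in EWT at 24 h, against 61.95, 60.2, 46.1 and 37.3 at 0 h (-5.30 ± 0.68, adjusted p = 4.3e-08). For CK the values were 0.206, 0, 1.37 and 1.44 FPKM at 24 h, against 17, 13.4, 14.2 and 16.4 at 0 h (-4.90 ± 0.68, adjusted p = 1.7e-07). No library at 24 h reached the level of any library at 0 h.

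evm_TU_scaffold_1763_211 (chromosome 23, 256439302 to 256440679, plus strand) behaved alike, with 1.81, 2.14, 0.248 and 0.997 FPKM in EWT at 24 h, against 33.7, 30.3, 27.2 and 19.4 at 0 h (-4.59 ± 0.55, adjusted p = 1e-08). The CK values were 0, 0.247, 0.164 and 0 FPKM at 24 h, against 8.84, 4.79, 7.297 and 8.48 at 0 h (-5.38 ± 0.55, adjusted p = 2.6e-10). Both genes came back in part after reoxygenation. At 24_3 h the synthase on chromosome 22 had 11.1, 26.4, 11.3 and 6.57 FPKM in EWT and 2.48, 5.24, 2.93 and 9.87 in CK, higher than at 24 h by 3.26 ± 0.68 in EWT (adjusted p = 3.9e-04) and 3.14 ± 0.68 in CK (adjusted p = 4.9e-04). evm_TU_scaffold_1763_211 was higher at 24_3 h than at 24 h by 2.93 ± 0.55 in EWT (adjusted p = 1.1e-04) and 3.58 ± 0.55 in CK (adjusted p = 4.7e-06). In all, 4 of 29 tested members were higher at 24_3 h than at 24 h in EWT and 4 in CK, and none was lower. Among the 5 that passed the filter without the 0 h libraries, 2 were higher in EWT and 3 in CK. For the 24 others the filter left little room for a return, since they passed it through the 0 h libraries alone.

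Most tested synthases were not called higher after reoxygenation, which was largely set by the filter for those that passed it through the 0 h libraries alone. A synthase at chromosome 20, 197623983 to 197638404, plus strand, which overlaps another gene of the table, had 29.1, 25.7, 22.2 and 7.79 FPKM in EWT and 23.6, 8.98, 19.02 and 13.2 in CK at 0 h, and in EWT no fragment in any library at 24 h or 24_3 h, at least 309-fold lower at 24 h. evm_TU_scaffold_1_63 (chromosome 15, 89710224 to 89711499, minus strand) and evm_TU_scaffold_1_65 (chromosome 15, 89679149 to 89680279, minus strand) lie close together. The first had 27.01, 22.6, 15.8 and 3.78 FPKM in EWT and 24.1, 9.83, 18.7 and 15.9 in CK at 0 h, values that overlapped. The other had 34.2, 34.3, 23.1 and 10.8 FPKM in EWT and 2.901, 1.08, 0.965 and 0.711 in CK (4.14 ± 0.63, adjusted p = 1.7e-06), with all EWT libraries above all CK libraries. At 24 h and 24_3 h neither had an FPKM above 0.700 in any library. The sources used here do not say how reads shared by such similar copies were assigned, so the split between copies is uncertain.

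evm_TU_scaffold_12222_19 (chromosome 14, 84808226 to 84808624, minus strand) was the reverse case, with no fragment in any EWT library and 9.23, 0.662, 1.58 and 2.32 FPKM in CK at 0 h. It met the filter through CK libraries alone, so this difference was in part set by it. Among the 29 tested synthases, 14 were higher and 3 lower in EWT than in CK at 0 h, beside 16.4% and 13.6% of all tested genes. Among the 5 that passed without the 0 h libraries 2 were higher and 1 lower.

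**Figure D4:**
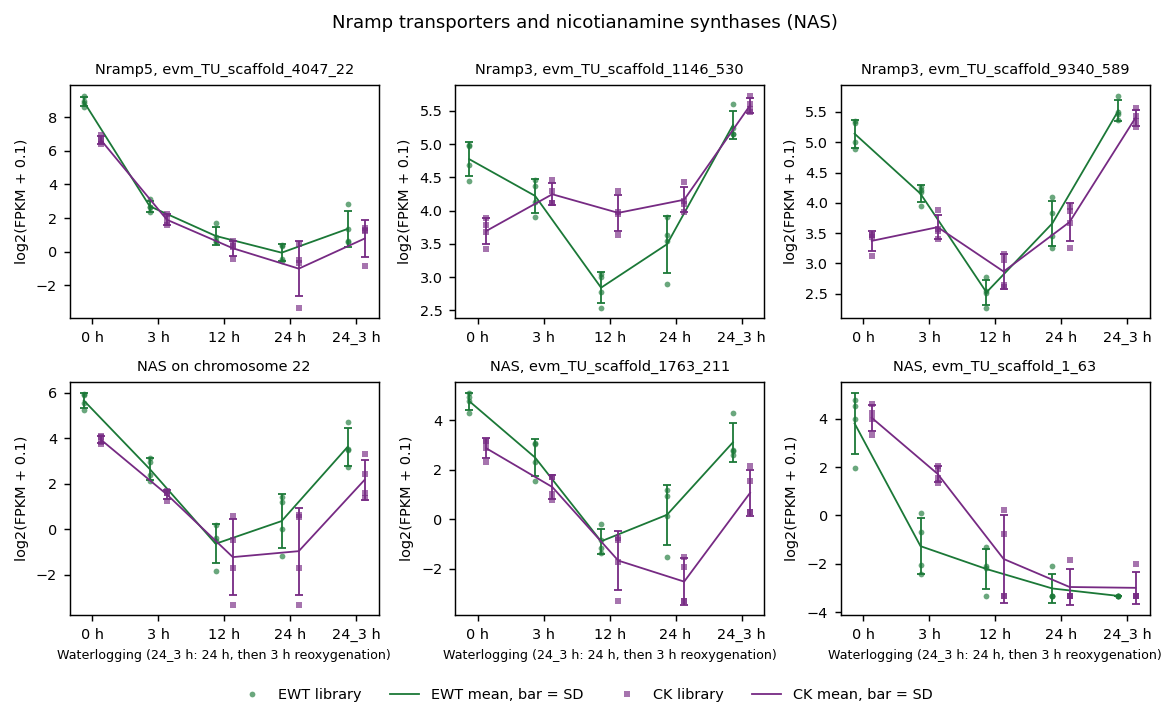
log2(FPKM + 0.1) (vertical axis) at each time (horizontal axis) of 3 Nramp genes and 3 nicotianamine synthases, with points for libraries, lines through means and bars for the SD, n = 4, EWT in green and CK in purple. The Nramp5 gene evm_TU_scaffold_4047_22 averaged 0.909 FPKM in EWT at 24 h and 488 at 0 h. The Nramp3 gene evm_TU_scaffold_1146_530 averaged 39.3 FPKM in EWT at 24_3 h and 11.5 at 24 h.

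Movement of iron into the vacuole was represented by 3 genes named vacuolar iron transporter 1 and 46 named as its homologs. All 3 of the first kind fell. evm_TU_scaffold_670_50 (chromosome 10, 67580113 to 67583805, plus strand) had 0.544, 0.817, 1.23 and 0.368 FPKM in EWT at 24 h, against 10.9, 8.99, 5.81 and 9.17 at 0 h (-3.46 ± 0.52, adjusted p = 8.1e-07). In CK it had 0 in all 4 libraries at 24 h, against 3.41, 3.81, 5.86 and 4.18 at 0 h, at least 18.2-fold lower. evm_TU_scaffold_1374_62 (chromosome 11, 48766573 to 48771981, plus strand) had 3.95, 2.94, 5.84 and 3.11 FPKM in EWT and 0, 0, 0 and 0.794 in CK at 12 h, and 13.3, 14.3, 8.41 and 12.7 in EWT and 5.501, 5.13, 5.55 and 9.12 in CK at 0 h. It fell further in CK than in EWT, with an interaction of 3.55 ± 0.93 at 12 h (adjusted p = 0.0091). The third, evm_TU_scaffold_43_38 (chromosome 12, 57092906 to 57096716, plus strand), averaged 0.632 ± 0.945 FPKM in EWT at 24 h and 5.25 ± 2.03 at 0 h (-3.90 ± 0.68, adjusted p = 1e-05), and 1.31 ± 0.208 in CK at 24 h and 12.3 ± 3.06 at 0 h (-3.12 ± 0.68, adjusted p = 2.0e-04).

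Homologs were mostly low, and most tested ones fell, but the filter had a part in this. Of the 17 tested vacuolar iron transporters of both kinds, 9 passed it through the 0 h libraries alone and were bound to be highest there. Among the 8 others, again of both kinds, none was higher and 5 were lower in EWT at 24 h. In CK 2 of these 8 were higher and 4 lower at 24 h. evm_TU_scaffold_425_535 (chromosome 2, 127476578 to 127477616, plus strand), named homolog 1, had 0.635, 0.432, 0 and 0.215 FPKM in EWT at 3 h, against 7.93, 14.7, 6.59 and 5.29 at 0 h (-4.60 ± 0.61, adjusted p = 2.5e-07). CK libraries had 0, 0.251, 0 and 0 FPKM at 3 h, against 8.05, 4.19, 5.14 and 7.68 at 0 h (-5.49 ± 0.61, adjusted p = 5.5e-09). evm_TU_scaffold_206_19 (chromosome 14, 72643917 to 72644849, plus strand) and evm_TU_scaffold_756_324 (chromosome 1, 140855425 to 140856114, plus strand) had no fragment in any library of either cultivar at 24 h. At 0 h evm_TU_scaffold_206_19 averaged 3.19 ± 1.49 FPKM in EWT and 2.32 ± 1.07 in CK, and evm_TU_scaffold_756_324 averaged 2.35 ± 0.592 in EWT and 0.926 ± 0.684 in CK. evm_TU_scaffold_735_265 (chromosome 3, 131920960 to 131927372, plus strand), named homolog 4, passed the test in no comparison and averaged 2.02 ± 0.940 FPKM in EWT and 1.26 ± 0.672 in CK at 24 h.

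A homolog rose in CK from near 0 and was not detected in flooded EWT roots. evm_TU_scaffold_10398_16 (chromosome 26, 63967264 to 63967872, plus strand), named homolog 1, had 0 in all 4 libraries in EWT at 24 h, against 0.720, 0.303, 0.165 and 0.634 FPKM at 0 h, where 12 fragments stood behind the values. This was at least 1.96-fold lower, a limit under the 2-fold threshold. For CK the values were 4.92, 7.27, 1.86 and 10.99 FPKM at 24 h, against 0, 0, 0.516 and 0 at 0 h (5.08 ± 0.64, adjusted p = 2.4e-08). The interaction was -7.41 ± 0.91 at 24 h (adjusted p = 3.1e-07) and -6.28 ± 0.91 at 12 h (adjusted p = 6.4e-06). The level was low, with 57 fragments over the 4 CK libraries at 24 h. The gene reached an FPKM of 1 in these 4 libraries and in none at 0 h, so its rise in CK was in part set by the filter. No EWT library reached that level at any time, so the interactions were in part set by the filter too. The call of a fall in EWT, which rests on the pseudocount of 0.1, was not made with a pseudocount of 1. The interactions were called with that pseudocount, but under the same filter, so this limit stays.

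Movement of iron out of the vacuole was represented by genes named Nramp3. All 4 tested Nramp3 genes fell in EWT at 12 h and at 24 h, and all 4 rose between 24 h and 24_3 h in both cultivars. evm_TU_scaffold_1146_530 (chromosome 8, 211170416 to 211174495, plus strand) had 5.71, 7.9, 8.14 and 6.77 FPKM in EWT at 12 h, against 31.4, 31.5, 25.7 and 21.7 at 0 h (-1.93 ± 0.18, adjusted p = 3.9e-11). The CK values were 15.7, 12.3, 19.5 and 15.4 at 12 h, against 10.6, 14.8, 12.7 and 13.6 at 0 h (0.27 ± 0.18, adjusted p = 0.23). The EWT libraries at 12 h lay below all EWT libraries at 0 h, while the CK groups overlapped.

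At 24_3 h evm_TU_scaffold_1146_530 reached 37.8, 48.3, 35.6 and 35.4 FPKM in EWT, against 12.2, 11.6, 7.35 and 14.9 at 24 h (1.79 ± 0.18, adjusted p = 7.6e-09). In CK it reached 52.98, 45.99, 44.4 and 48.4 FPKM at 24_3 h, against 21.4, 17.6, 17.1 and 15.7 at 24 h (1.42 ± 0.18, adjusted p = 2.5e-07). In CK this was above 0 h as well (1.89 ± 0.18, adjusted p = 2.2e-10). evm_TU_scaffold_9340_589 (chromosome 7, 201817062 to 201821150, plus strand) had 41.1, 54.5, 43.9 and 44.9 FPKM in EWT and 38.02, 40.8, 43.3 and 47.3 in CK at 24_3 h, and 5.71, 6.72, 5.63 and 4.72 in EWT and 6.12, 6.02, 8.86 and 8.19 in CK at 12 h. evm_TU_scaffold_6116_40 (chromosome 5, 184880345 to 184883352, plus strand) had 24.7, 33.7, 21.5 and 20.4 FPKM in EWT and 24.3, 33.4, 20.9 and 24.6 in CK at 24_3 h, and 4.18, 5.91, 6.13 and 6.57 in EWT and 10.2, 6.34, 7.63 and 7.5 in CK at 12 h.

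The Nramp3 genes differed between cultivars in their response. The interaction at 12 h was -2.20 ± 0.26 for evm_TU_scaffold_1146_530 (adjusted p = 1.5e-07), -2.11 ± 0.25 for evm_TU_scaffold_9340_589 (adjusted p = 2e-07) and -1.64 ± 0.30 for evm_TU_scaffold_6116_40 (adjusted p = 2.0e-04), and all 4 tested Nramp3 genes had a called negative interaction at 12 h and at 24 h. EWT also started higher. At 0 h evm_TU_scaffold_9340_589 had 40.5, 39.96, 32.1 and 29.4 FPKM in EWT and 10.97, 10.96, 8.59 and 10.7 in CK (1.77 ± 0.18, adjusted p = 3.5e-10). evm_TU_scaffold_6116_40 started at 31.3, 45.9, 34.02 and 28.1 FPKM in EWT and at 16.01, 14.8, 14.4 and 15.2 FPKM in CK (1.18 ± 0.21, adjusted p = 2.6e-05). At 24_3 h 1 of the 4 was called between cultivars. Over the 5 Nramp3 genes, the summed FPKM came to 139.7 ± 26.01 in EWT and 127 ± 7.19 in CK after reoxygenation, against starting levels of 133 ± 24.3 in EWT and 45.2 ± 1.78 in CK.

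The remaining Nramp genes were named Nramp2, in Arabidopsis a manganese transporter of the Golgi, and Nramp6, an intracellular metal transporter of Arabidopsis. All 3 tested Nramp2 genes were lower at 24 h in both cultivars. evm_TU_scaffold_1827_132 (chromosome 24, 64375940 to 64382789, minus strand) had 1.09, 1.09, 1.07 and 2.28 FPKM in EWT at 24 h, against 12.2, 13.2, 10.3 and 10.7 at 0 h (-3.05 ± 0.42, adjusted p = 1.9e-07), and averaged 0.498 ± 0.341 in CK at 24 h and 3.41 ± 0.327 at 0 h (-2.93 ± 0.42, adjusted p = 3.5e-07). Of the 5 tested Nramp6 genes, 3 were lower in EWT at 24 h, beside 26.7% of all tested genes. In CK 2 of the 5 were higher at 24 h, beside 20.4%. evm_TU_scaffold_1760_266 (chromosome 11, 242195025 to 242202106, minus strand) had 0, 0, 1.32 and 0 FPKM in EWT and 2.38, 1.398, 2.56 and 2.33 in CK at 24 h, and 0.450, 0.852, 0.775 and 0.446 in EWT and 0.582, 0.678, 0.807 and 0.178 in CK at 0 h, with an interaction of -3.74 ± 0.76 at 24 h (adjusted p = 7.2e-04). In EWT at 24 h the third library alone held fragments of this gene, and the other 3 were at 0.

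Ferritins, which store iron in plastids, were lower in EWT than in CK at 24 h for 7 of 10 tested members, and none was higher. Of all tested genes 17.4% were lower and 21.5% higher. Against 0 h, 1 of the 10 was higher in EWT at 12 h (beside 20.2%) and none was called at 24 h (beside 46.0%). CK had 3 higher and 2 lower members at 12 h, beside 18.4% and 27.1% of all tested genes. At 24 h it had 5 higher and 1 lower, beside 20.4% and 28.6%. evm_TU_scaffold_10885_189 (chromosome 7, 237450278 to 237454162, minus strand) was the most abundant. It had 15.2, 11.5, 31.3 and 20.3 FPKM in EWT at 24 h, against 29.04, 28.5, 26.5 and 29.8 at 0 h, a difference of -0.63 ± 0.19 (adjusted p = 0.006) that stayed under the fold threshold. In CK it had 306, 259, 288 and 344 FPKM at 24 h, against 69.01, 72.01, 103 and 99.2 at 0 h (1.82 ± 0.19, adjusted p = 6.2e-10). The EWT groups overlapped and the CK groups did not.

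The interaction of evm_TU_scaffold_10885_189 was -1.37 ± 0.27 at 12 h (adjusted p = 6.3e-04) and -2.45 ± 0.27 at 24 h (adjusted p = 5.2e-08). EWT was below CK in all libraries at every time, with log2 differences of -1.57 ± 0.19 at 0 h (adjusted p = 3.2e-08) and -4.02 ± 0.19 at 24 h (adjusted p = 8.1e-19). After reoxygenation it fell to 60.9, 60.1, 67.4 and 82.3 FPKM in CK (-2.15 ± 0.19 against 24 h, adjusted p = 2.7e-10).

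evm_TU_scaffold_1659_374 (chromosome 9, 240480918 to 240483391, minus strand) was nearly as abundant and differed less between the cultivars. It had 69, 65.7, 65.7 and 43.3 FPKM in EWT and 118, 85.1, 154 and 148 in CK at 24 h, and 73.1, 74.4, 66.02 and 67.2 in EWT and 71.6, 91.4, 101 and 112 in CK at 0 h. Neither change from 0 h was called. At 24_3 h it was lower than at 0 h in both cultivars, with log2 differences of -1.16 ± 0.19 in EWT (adjusted p = 1.5e-05) and -1.39 ± 0.19 in CK (adjusted p = 4.9e-07).

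evm_TU_scaffold_896_21 (chromosome 8, 246386641 to 246390556, minus strand) had 2.85, 4.67, 2.84 and 2.45 FPKM in EWT at 24 h, against 5.53, 5.13, 4.85 and 3.76 at 0 h, and 30.1, 12.5, 35.4 and 29.3 in CK at 24 h, against 8.45, 11.9, 13.9 and 9.89 at 0 h. The interaction at 24 h was -1.80 ± 0.40 (adjusted p = 0.0016). The rise in CK (1.20 ± 0.28, adjusted p = 4.3e-04) and that of evm_TU_scaffold_386_29 (chromosome 24, 240611726 to 240720099, plus strand; 1.10 ± 0.32, adjusted p = 0.0035) were no longer called when all counted fragments were taken as library size. The rise of evm_TU_scaffold_386_29 in CK was also lost without the first library at 0 h (0.997) or the third at 24 h (0.83), where it fell under the fold threshold. evm_TU_scaffold_386_29 was the 1 ferritin higher in EWT at 12 h, with 8.55, 8.01, 12.7 and 9.28 FPKM, against 3.12, 2.76, 3.58 and 3.85 at 0 h (1.49 ± 0.32, adjusted p = 1.4e-04), a call also lost under that library size.

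The pair of ferritin-2 genes, named after an Arabidopsis ferritin known from seeds, were at or near 0 before flooding. evm_TU_scaffold_8729_2 (unplaced scaffold_8729, 11953 to 14859, minus strand) had 0.483, 0.242, 0.548 and 0 FPKM in EWT at 24 h, against 0 in all 4 libraries at 0 h. CK libraries had 4.95, 3.64, 2.18 and 5.62 FPKM at 24 h, against 0 in all 4 libraries at 0 h, at least 37.9-fold higher, and the log2 difference of EWT from CK at 24 h was -3.55 ± 0.76 (adjusted p = 2.2e-04). evm_TU_scaffold_250_477 (chromosome 5, 75410202 to 75413946, minus strand) had 0.240, 0, 0 and 0 FPKM in EWT at 24 h, against 0.0932, 0, 0 and 0 at 0 h. For CK the values were 1.74, 4.703, 1.68 and 1.78 FPKM at 24 h, against 0 in all 4 libraries at 0 h, at least 23.01-fold higher, with an interaction of -4.34 ± 1.01 (adjusted p = 0.0029). Both were called higher in CK and not in EWT at 24 h, and 58 and 33 fragments stood behind their CK values. Both reached an FPKM of 1 in all 4 CK libraries at 24 h, which alone met the filter, and in no library at 0 h. Their rise in CK and the difference from EWT were thus in part set by that choice.

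Not every ferritin followed. A ferritin-3 gene at chromosome 24, 240576472 to 240578924, plus strand, also outside the gene models, had 0.647, 0.486, 0.742 and 1.12 FPKM in EWT and 11.3, 14.6, 15.2 and 15.4 in CK at 0 h (-4.11 ± 0.70, adjusted p = 1.1e-05). At 24_3 h it averaged 0.894 ± 0.635 in CK, with a log2 difference from 0 h of -4.39 ± 0.70 (adjusted p = 4.9e-06). evm_TU_scaffold_8085_139 (chromosome 23, 238572667 to 238575209, plus strand) had 2.78, 1.21, 1.92 and 1.53 FPKM in EWT and 0, 0, 0 and 2.39 in CK at 12 h, where 1 CK library carried the whole signal. All 7 ferritins called between 24_3 h and 24 h in CK were lower at 24_3 h, and none of the 10 was called in EWT.

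**Figure D5:**
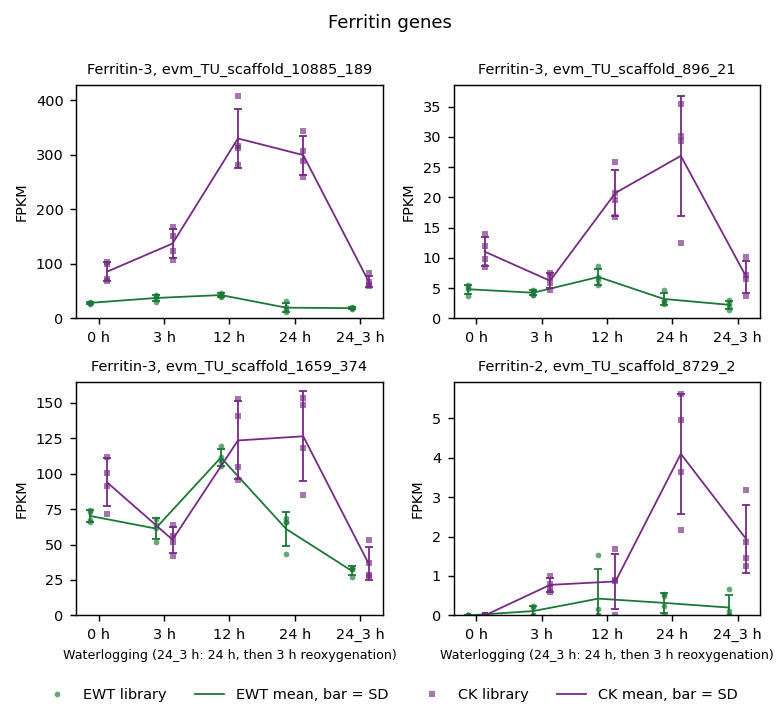
FPKM (vertical axis) at each time (horizontal axis) of 3 ferritin-3 genes and 1 ferritin-2 gene, with points for libraries, lines through means and bars for the SD, n = 4, EWT in green and CK in purple. evm_TU_scaffold_10885_189 averaged 19.6 FPKM in EWT and 299 in CK at 24 h, and 28.4 in EWT and 85.8 in CK at 0 h.

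FRO genes named after Arabidopsis reductases of shoots and organelles had patterns of their own. In Arabidopsis FRO6 is a plasma membrane reductase of green tissue, FRO7 acts in chloroplasts and FRO8 in mitochondria. evm_TU_scaffold_1786_49 (chromosome 5, 173286927 to 173291841, minus strand), the 1 tested FRO6 gene, had 0, 0, 0 and 0.143 FPKM in EWT at 12 h, against 2.35, 2.39, 1.31 and 1.33 at 0 h (-3.91 ± 0.44, adjusted p = 1.8e-09). The CK values were 6.04, 5.39, 4.44 and 1.82 at 12 h, against 2.53, 1.499, 2.17 and 3.097 at 0 h (0.82 ± 0.44, adjusted p = 0.12). The interaction was -4.72 ± 0.62 at 12 h (adjusted p = 1.1e-06) and -3.90 ± 0.62 at 24 h (adjusted p = 2.5e-05). At 24_3 h it was back at 1.93, 2.48, 2.17 and 2.501 FPKM in EWT (2.88 ± 0.44 against 24 h, adjusted p = 5.2e-06).

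All 3 tested FRO7 genes were lower in EWT at 12 h and at 24 h. evm_TU_scaffold_285_27 (chromosome 3, 250824428 to 250830615, plus strand) had 0.204, 1.13, 0.169 and 1.05 FPKM in EWT at 12 h, against 13.9, 17.6, 14.5 and 9.19 at 0 h (-4.54 ± 0.34, adjusted p = 1.5e-13). In CK it had 1.19, 0.706, 1.396 and 1.63 at 12 h, against 4.46, 3.31, 5.34 and 5.903 at 0 h (-1.89 ± 0.34, adjusted p = 1.7e-05), with an interaction of -2.65 ± 0.48 (adjusted p = 2.1e-04). At 24_3 h it had 22.99, 18.5, 16.9 and 14.9 FPKM in EWT and 22.9, 22.2, 21.3 and 11.6 in CK, higher than at 24 h by 2.62 ± 0.34 in EWT (adjusted p = 5.8e-07) and 2.78 ± 0.34 in CK (adjusted p = 1.2e-07). evm_TU_scaffold_3341_14 (chromosome 1, 270444034 to 270450830, plus strand) rose in the same way, by 3.14 ± 0.49 in EWT (adjusted p = 7.7e-06) and 3.13 ± 0.49 in CK (adjusted p = 5.8e-06). A FRO8 gene, evm_TU_scaffold_1431_38_evm_TU_scaffold_1431_39, passed the test in no comparison and averaged 1.997 ± 0.203 FPKM in EWT and 1.01 ± 0.330 in CK at 24 h.

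Summed markers of green shoot tissue were also higher in flooded roots, and their part in the ferritin, FRO6 and FRO7 results was not tested. The list held 179 genes for chlorophyll a-b binding proteins and the small subunit of Rubisco, of which 47 were at 0 in all libraries. Its summed FPKM was 98.1 to 138 in EWT and 108 to 235 in CK at 24 h, 176 to 195 in EWT and 88.9 to 155 in CK at 12 h, and 47.1 to 65.5 in EWT and 38.5 to 93 in CK at 0 h. These markers were higher in EWT than in CK at 12 h, and their ranges overlapped at 24 h. A list of 114 genes was taken by name for root tissue (Casparian strip, SCARECROW, SHORT-ROOT and root hair defective), with 11 at 0 in all libraries. Of these, 64 carried the words root hair defective, and whether such genes are limited to roots was not tested. The summed FPKM of the 114 was 112 to 129.8 in EWT at 24 h and 207 to 267 at 0 h, and 72.4 to 88.6 in CK at 24 h and 209.9 to 252 at 0 h. The mean of this sum at 24 h was 48.8% of that at 0 h in EWT and 36.8% in CK, where summed Nramp was at 6.88% in EWT and 36.8% in CK. The part of root tissue in those falls was not tested, and this list is a weak measure of it.

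Reoxygenation separated the families. For 24_3 h against 24 h, EWT had 21 higher and 2 lower members, beside 24.9% of all tested genes (13.3% higher, 11.7% lower), and CK had 18 higher and 15 lower, beside 27.5% (14.1% higher, 13.3% lower). With all counted fragments as library size the split in CK was 25 higher and 13 lower. Of 17 tested Nramp transporters 11 were higher in EWT and 9 in CK, and none was lower. Of 20 FRO genes, EWT had 6 higher and none lower, and CK had 3 higher and 4 lower. In EWT 19 members were lower at 24 h than at 0 h and then higher at 24_3 h than at 24 h, of which 10 were Nramp and 5 FRO genes. In CK 11 were, of which 5 were Nramp genes. The opposite course, higher at 24 h and then lower at 24_3 h, was taken by 8 members in CK, of which 4 were ferritins and 3 FRO genes, and by none in EWT.

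At 0 h 31 members were higher and 7 lower in EWT than in CK, beside 30.0% of all tested genes (16.4% higher, 13.6% lower). With the filter that left out the 0 h libraries 15 of 59 were higher (25.4%) and 5 lower (8.47%), beside 16.3% and 13.6% of all genes, and with a pseudocount of 0.01 the counts were 17 higher and 7 lower of 96. In the comparison of all 96, the higher members included 8 of 17 Nramp transporters, 14 of 29 nicotianamine synthases and 6 of 20 FRO genes, whereas 4 of 10 ferritins were lower and none was higher. During flooding EWT had 5 higher and 14 lower members than CK at 3 h, beside 33.0% of all tested genes (17.2% higher, 15.8% lower), and 8 higher and 20 lower at 12 h, beside 38.2% (21.6% higher, 16.6% lower). At 24 h it had 10 higher and 21 lower, beside 38.8% (21.5% higher, 17.4% lower), with 7 of 10 ferritins lower. The share of members lower in EWT was 14.6%, 20.8% and 21.9% at 3 h, 12 h and 24 h, which is near that of all tested genes, and the share higher was 5.21%, 8.33% and 10.4%. With the filter that left out the 0 h libraries the shares lower were 15.3%, 33.9% and 32.2%, beside 16.5%, 17.7% and 18.6% of all genes. At 24_3 h the counts were 10 and 8, beside 30.2% (16.9% higher, 13.3% lower).

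The responses of the cultivars were called different for 28 members at 12 h, where 6 interactions were positive and 22 negative, beside 10.8% of all tested genes (5.97% positive, 4.83% negative). At 24 h they were called different for 28 members, 4 positive and 24 negative, beside 12.0% (6.07% positive, 5.91% negative). A negative value means that EWT fell further, or rose less, than CK. They included 9 of 17 Nramp and 8 of 20 FRO genes at 12 h, and 8 of 17 Nramp genes, 6 of 20 FRO genes and 4 of 10 ferritins at 24 h. The interactions share the 0 h libraries with the comparisons above, so a cultivar difference at 0 h enters each of them. For 8 of the 28 at 12 h and 8 of the 28 at 24 h neither cultivar had more than 3 fragments at the later time, so the interaction mainly restates the difference at 0 h, among them evm_TU_scaffold_1495_10, evm_TU_scaffold_2875_60 and evm_TU_scaffold_12222_19 at both times. With the filter that left out the 0 h libraries 4 were positive and 16 negative of 59 at 12 h, and 1 was positive and 18 negative at 24 h. That filter still admits genes that met it only through CK libraries after 0 h, whose negative interactions were in part set by it. At 24 h these included evm_TU_scaffold_4753_131, evm_TU_scaffold_1668_112, evm_TU_scaffold_10398_16, evm_TU_scaffold_250_477 and evm_TU_scaffold_8729_2. At 3 h 1 was positive and 12 were negative, beside 5.05% of all tested genes (2.77% positive, 2.28% negative). At 24_3 h 3 were positive and 10 negative, beside 2.94% (1.83% positive, 1.11% negative). Of these 13 members at each time, 5 at 3 h and 7 at 24_3 h likewise had no more than 3 fragments in either cultivar at the later time. With the filter that left out the 0 h libraries none was positive and 5 were negative at 3 h, and 1 was positive and 5 were negative at 24_3 h.

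Other iron genes, outside the 191 members, were taken as lists by protein name. Of 6 tested genes named after FIT, the activator of root iron uptake in Arabidopsis, 4 passed the filter through the 0 h libraries alone and so were bound to be lower later. All 6 were lower at 12 h and 24 h in EWT and in CK. Of 5 genes named after BRUTUS, a ubiquitin ligase that restrains the iron deficiency response in Arabidopsis, 2 were higher in EWT at 24 h and 3 in CK, and 3 had a negative interaction. Of all 30 tested regulators, EWT had 3 higher and 10 lower at 24 h (43.3% called, beside 46.0% of all tested genes), and CK had 4 higher and 12 lower (53.3%, beside 49.0%), shares near those of all genes. The most abundant of them, evm_TU_scaffold_964_114, named after the iron regulator ILR3, averaged 43.5 ± 16.9 FPKM in EWT at 24 h and 274 ± 31.8 at 0 h, a log2 difference of -2.72 ± 0.28 (adjusted p = 3.6e-10).

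Among the 39 tested genes of long-distance and export transport, EWT had 5 higher and 21 lower at 24 h (66.7% called), and CK had 5 higher and 23 lower (71.8%). Of all tested genes 46.0% were called in EWT (26.7% lower) and 49.0% in CK (28.6% lower). Of the 39, 11 passed the filter through the 0 h libraries alone and were bound to be highest at 0 h. The 39 included 27 YSL genes, whose products carry metals bound to nicotianamine. The most abundant, evm_TU_scaffold_2248_150, named YSL9, averaged 58.6 ± 11.6 FPKM in EWT at 24 h and 220.1 ± 10.8 at 0 h (-1.93 ± 0.23, adjusted p = 1.3e-08). The 17 tested genes of the route that releases iron-binding coumarins from roots gave EWT 3 higher and 9 lower at 24 h (70.6% called) and CK 3 higher and 10 lower (76.5%). These shares stood beside the same 46.0% and 49.0% of all tested genes (26.7% and 28.6% lower), and 4 of the 17 passed through the 0 h libraries alone. The most abundant of the 17, evm_TU_scaffold_63_95, named ABC transporter G family member 37, did not fall in EWT. It averaged 23.8 ± 12.1 FPKM in EWT at 24 h and 12.0 ± 1.90 at 0 h (0.80 ± 0.95, limma adjusted p = 0.525). At 12 h in EWT it averaged 58.9 ± 12.5 and was called higher (2.27 ± 0.95, adjusted p = 0.0442). The 52 genes of mitochondrial and plastid iron use counted 10 higher and 13 lower in EWT, and 12 higher and 10 lower in CK (44.2% and 42.3% called, beside 46.0% and 49.0% of the whole table's tested genes). Their most abundant gene, evm_TU_scaffold_1620_3 (Iron-sulfur cluster assembly protein 1), averaged 59.9 ± 12.03 FPKM in EWT at 24 h and 56.3 ± 8.27 at 0 h (0.08 ± 0.17, adjusted p = 0.74).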

How the data were processed

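RNA-seq of poly(A) RNA from chrysanthemum roots was analysed in 40 libraries (2 cultivars at 5 times, with 4 libraries in each group, which the study calls biological replicates). According to the submitters' processing notes, paired-end reads were trimmed with fastp, aligned with HISAT2 (2.0.5) and counted per gene with featureCounts (1.5.0-p3). The sources used here do not give the genome build, the strand setting or the treatment of reads shared by similar copies. The deposited values are FPKM per gene, normalised by the authors, who tested genes with DESeq2. FPKM times gene length was a whole multiple of 1 fragment for 100% of the values above 0 (within 0.01 of a fragment), so fragments per library could be recovered, and the library size behind FPKM was 0.762 to 1.30 times the fragments counted on genes.

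Genes that reached an FPKM of 1 in 4 or more libraries (89517 of 178540) were fitted with limma (3.58.1, R 4.3.3) on log2(FPKM + 0.1), with 10 group means over all 40 libraries and a trend in the variance. P-values were adjusted by the Benjamini-Hochberg method over all genes tested, and a call needed a fold change of 2 or more with an adjusted p up to 0.05. The interaction was the EWT response less the CK response. Genes were named by rank of mean FPKM (the 4 highest of a family), largest called change in either direction, largest called interaction and largest called cultivar difference at 0 h. Members and lists were chosen with earlier results of these data known. Folds against groups with no fragment used a limit of 3 fragments over the group, which covers counting error only. Of the 96 tested members 15 overlap another gene of the table, so their fragments may be shared. Alternatives were pseudocounts of 1 and 0.01, no filter and stricter filters, a fold of 4, unadjusted p, a replicate block, the compared groups alone, all counted fragments as library size, limma voom on recovered fragments and leaving out each library. The scripts were tested on simulated data. Sums and figures were made with Python 3.11.15, pandas 2.3.3 and matplotlib 3.10.9.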

Additional observations from a re-analysis of the deposited data

Results flagged for a closer look

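Of the 60 summed levels (6 families in 10 groups), 4 had 1 library far from the other 3 by Dixon's test, where chance alone picks about 1 in 20. Summed ferritin was 191 FPKM in the fourth EWT library at 12 h. Summed Nramp was 55.0 FPKM in the second CK library at 12 h and 57.0 FPKM in the second CK library at 24 h. Summed vacuolar iron transporter FPKM was 8.44 in the second EWT library at 24_3 h.

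At 12 h 18 of the named members had a called limma interaction (EWT response less CK response, log2, adjusted p of at most 0.05). Among the ferric reduction oxidases it was -2.11 for evm_TU_scaffold_1495_10, -2.57 for evm_TU_scaffold_1668_112, -4.72 for evm_TU_scaffold_1786_49, -2.65 for evm_TU_scaffold_285_27, -3.15 for evm_TU_scaffold_3341_14 and -4.89 for evm_TU_scaffold_4753_131. Among the ferritins it was -1.37 for evm_TU_scaffold_10885_189, 4.20 for evm_TU_scaffold_8085_139 and 3.31 for the gene at chromosome 24, 240576472 to 240578924. Among the Nramp transporters it was -2.20 for evm_TU_scaffold_1146_530, -2.34 for evm_TU_scaffold_1760_266, -3.53 for evm_TU_scaffold_2875_60, -1.64 for evm_TU_scaffold_6116_40 and -2.11 for evm_TU_scaffold_9340_589. Among the nicotianamine synthases it was 3.04 for evm_TU_scaffold_12222_19 and -3.29 for evm_TU_scaffold_1_65. Among the vacuolar iron transporters it was -6.28 for evm_TU_scaffold_10398_16 and 3.55 for evm_TU_scaffold_1374_62.

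At 24 h 18 of the named members had a called limma interaction (EWT response less CK response, log2, adjusted p of at most 0.05). Among the ferric reduction oxidases it was -2.11 for evm_TU_scaffold_1495_10, -4.35 for evm_TU_scaffold_1668_112, -3.90 for evm_TU_scaffold_1786_49, -6.61 for evm_TU_scaffold_4753_131 and -2.33 for evm_TU_scaffold_692_345. Among the ferritins it was -2.45 for evm_TU_scaffold_10885_189, -4.34 for evm_TU_scaffold_250_477, -3.55 for evm_TU_scaffold_8729_2 and -1.80 for evm_TU_scaffold_896_21. Among the Nramp transporters it was -1.75 for evm_TU_scaffold_1146_530, -3.74 for evm_TU_scaffold_1760_266, -4.08 for evm_TU_scaffold_2875_60, -1.88 for evm_TU_scaffold_6116_40 and -1.79 for evm_TU_scaffold_9340_589. Among the nicotianamine synthases it was 4.53 for evm_TU_scaffold_12222_19 and -3.39 for evm_TU_scaffold_1_65. Among the vacuolar iron transporters it was -7.41 for evm_TU_scaffold_10398_16 and 2.56 for evm_TU_scaffold_425_535.

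Some of these interactions were lost when 1 library was left out. For evm_TU_scaffold_12222_19 at 12 h it was 2.37 to 3.04 without any library of EWT 12 h, any library of EWT 0 h, library 1 or 4 of CK 12 h or library 1 or 4 of CK 0 h (limma adjusted p = 0.0571 to 0.12). For evm_TU_scaffold_1668_112 at 12 h it was -2.37 to -2.15 without library 1, 2 or 3 of CK 12 h (limma adjusted p = 0.0608 to 0.0793). For evm_TU_scaffold_1760_266 at 12 h it was -2.39 to -1.96 without library 2 or 3 of EWT 12 h, library 2 or 3 of EWT 0 h, library 1, 2 or 3 of CK 12 h or library 1 or 4 of CK 0 h (limma adjusted p = 0.0512 to 0.106). For evm_TU_scaffold_425_535 at 24 h it was 2.24 to 2.64 without library 1 or 3 of EWT 24 h, library 1, 3 or 4 of EWT 0 h, library 1 or 2 of CK 24 h or library 1, 3 or 4 of CK 0 h (limma adjusted p = 0.0578 to 0.105). For evm_TU_scaffold_692_345 at 24 h it was -2.01 without library 2 of CK 24 h (limma adjusted p = 0.0541). For evm_TU_scaffold_8729_2 at 24 h it was -2.97 without library 4 of EWT 24 h (limma adjusted p = 0.0676). For the ferritin on chromosome 24 at 12 h it was 2.81 to 3.03 without library 3 of EWT 12 h or library 3 of CK 12 h (limma adjusted p = 0.0537 to 0.0651). For evm_TU_scaffold_1495_10, evm_TU_scaffold_2875_60 and evm_TU_scaffold_12222_19 at 12 h and 24 h, and evm_TU_scaffold_1_65 at 12 h, neither cultivar had more than 3 fragments at the later time, so these interactions mainly restate the difference at 0 h (EWT less CK, 2.11, 4.08, -4.53 and 4.14 in that order). At 24 h evm_TU_scaffold_1_65 had 4 fragments in EWT and 0 in CK. The gene evm_TU_scaffold_12222_19 had no fragment in any EWT library, so its interaction is the fall in CK alone. The fitted sizes of genes at 0 in a group depend on the pseudocount. Genes that met the filter only through CK libraries after 0 h had negative interactions that were in part set by it. Among them were evm_TU_scaffold_4753_131, evm_TU_scaffold_1668_112, evm_TU_scaffold_10398_16, evm_TU_scaffold_250_477 and evm_TU_scaffold_8729_2.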

How the results depend on the processing

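No direction of a named member was reversed under any alternative that gave a value. Counts of called members that moved by over 1.5 times are given here, each with the count of the report in brackets. With a pseudocount of 1, they were 39 (67) for CK 12 h against CK 0 h, 21 (33) for CK 24_3 h against CK 24 h, 32 (49) for CK 3 h against CK 0 h, 15 (28) for EWT 12 h against CK 12 h, 19 (31) for EWT 24 h against CK 24 h, 10 (18) for EWT 24_3 h against CK 24_3 h, 14 (23) for EWT 24_3 h against EWT 24 h, 23 (13) for interaction at 24_3 h and 23 (13) for interaction at 3 h. With a mean FPKM of at least 1 required, they were 32 (67) for CK 12 h against CK 0 h, 37 (68) for CK 24 h against CK 0 h, 34 (62) for CK 24_3 h against CK 0 h, 23 (49) for CK 3 h against CK 0 h, 25 (38) for EWT 0 h against CK 0 h, 36 (66) for EWT 12 h against EWT 0 h, 37 (66) for EWT 24 h against EWT 0 h, 26 (52) for EWT 24_3 h against EWT 0 h, 25 (53) for EWT 3 h against EWT 0 h, 18 (28) for interaction at 12 h, 7 (13) for interaction at 24_3 h and 8 (13) for interaction at 3 h. With a filter that left out the 0 h libraries, chosen after seeing the data, they were 31 (67) for CK 12 h against CK 0 h, 33 (68) for CK 24 h against CK 0 h, 27 (62) for CK 24_3 h against CK 0 h, 15 (49) for CK 3 h against CK 0 h, 20 (38) for EWT 0 h against CK 0 h, 31 (66) for EWT 12 h against EWT 0 h, 31 (66) for EWT 24 h against EWT 0 h, 19 (52) for EWT 24_3 h against EWT 0 h, 19 (53) for EWT 3 h against EWT 0 h, 6 (13) for interaction at 24_3 h and 5 (13) for interaction at 3 h. With a fold of at least 4, they were 19 (33) for CK 24_3 h against CK 24 h, 14 (38) for EWT 0 h against CK 0 h, 15 (28) for EWT 12 h against CK 12 h, 8 (18) for EWT 24_3 h against CK 24_3 h, 12 (23) for EWT 24_3 h against EWT 24 h, 8 (19) for EWT 3 h against CK 3 h and 8 (13) for interaction at 3 h. With the compared groups alone in the fit, they were 18 (33) for CK 24_3 h against CK 24 h, 17 (28) for EWT 12 h against CK 12 h, 11 (18) for EWT 24_3 h against CK 24_3 h and 21 (13) for interaction at 3 h. With a pseudocount of 0.01, they were 24 (38) for EWT 0 h against CK 0 h, 18 (28) for interaction at 12 h, 7 (13) for interaction at 24_3 h and 6 (13) for interaction at 3 h. With no filter on low values, they were 59 (38) for EWT 0 h against CK 0 h, 44 (28) for interaction at 24 h, 23 (13) for interaction at 24_3 h and 20 (13) for interaction at 3 h. With limma voom on recovered fragments, they were 29 (19) for EWT 3 h against CK 3 h and 22 (13) for interaction at 3 h. With unadjusted p, they were 44 (28) for interaction at 24 h, 29 (13) for interaction at 24_3 h and 34 (13) for interaction at 3 h. Leaving out 1 library at a time gave counts of 60 to 68 for CK 12 h against CK 0 h, 65 to 68 for CK 24 h against CK 0 h, 58 to 63 for CK 24_3 h against CK 0 h, 28 to 33 for CK 24_3 h against CK 24 h, 45 to 48 for CK 3 h against CK 0 h, 30 to 38 for EWT 0 h against CK 0 h, 21 to 30 for EWT 12 h against CK 12 h, 64 to 66 for EWT 12 h against EWT 0 h, 26 to 32 for EWT 24 h against CK 24 h, 63 to 67 for EWT 24 h against EWT 0 h, 14 to 19 for EWT 24_3 h against CK 24_3 h, 48 to 52 for EWT 24_3 h against EWT 0 h, 19 to 25 for EWT 24_3 h against EWT 24 h, 16 to 21 for EWT 3 h against CK 3 h, 52 to 54 for EWT 3 h against EWT 0 h, 23 to 30 for interaction at 12 h, 24 to 31 for interaction at 24 h, 10 to 15 for interaction at 24_3 h and 9 to 16 for interaction at 3 h. Of the called values of named members, 11 of 369 were no longer called with all counted fragments as library size, which moved the median log2 difference of all tested genes to -0.65 and -0.56 in EWT and -0.59 and -0.55 in CK at 12 h and 24 h. A pseudocount of 1 ended 75, a pseudocount of 0.01 ended 63, the compared groups alone 51, no filter 19 and voom 12. Same-numbered libraries did not deviate together (correlations of -0.082 to 0.0786), so the numbers were not taken as pairs, and with the replicate block every count stayed within 1.5 times that of the report, with 67 for CK 12 h against CK 0 h, 68 for CK 24 h against CK 0 h, 66 for EWT 12 h against EWT 0 h, 66 for EWT 24 h against EWT 0 h, 27 for interaction at 12 h and 27 for interaction at 24 h. In between 0 and 3 of 4 pairs a library correlated best with its own number. Depth limits the low genes, since a level of 0 allows up to 3 fragments over a group.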
